A study of Mus musculus with 2 samples.

Results

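The genes described here encode transcription factors of the ETS family, and they are Etv6, Etv3, Fli1, Erg, Ets1, Ets2, Spi1, Elf1, Elk3 and Gabpa. They make up 10 of the 21521 protein-coding genes that RefSeq places on the 19 autosomes and X of the mm10 build. Their chromatin loops were read from Hi-C, a method that joins and sequences stretches of DNA lying near each other in the nucleus. There was 1 group, HPC5 cells of genotype Etv6+/+, a haematopoietic progenitor line derived from bone marrow, with 2 samples named replicate 1 and replicate 2. Per the labels, cells were fixed in formaldehyde and cut with the Arima enzymes, and no other genotype or treatment was included. All values therefore describe a single line, the labels do not say whether the replicates were separate cultures, and no contrast between conditions could be tested. The lists hold no RNA levels, so the cell type could not be checked against marker genes.

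ETS factors share a winged helix DNA-binding domain that recognises a GGAA core, and different members activate or repress from such sites. In blood, Spi1, Fli1, Erg and Etv6 are required for stem cells or for particular lineages, and several of the others act downstream of growth factor signalling. A chromatin loop is a pair of positions, its anchors, that contact each other more often than their surroundings do, commonly where cohesin is stopped by CTCF or where promoters and enhancers meet. A contact domain is a stretch whose fragments contact each other more than they contact the outside.

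The authors' medium loop lists held 1276 loops in replicate 1 and 5729 in replicate 2, and their high lists, whose positions were all among the medium ones, held 202 and 3354. The domain lists held 3 domains in replicate 1 and 339 in replicate 2. Anchors were bins of 5, 10 or 25 kb, and 84.2% of loops in replicate 1 but 41.5% in replicate 2 lay on 25 kb bins. The high lists held 15.8% and 58.5% of the medium loops, the same shares as lay on narrower bins. Every loop described here on 5 or 10 kb bins was in a high list, and none on 25 kb bins was. Being in a high list thus went with bin width and is not read here as a stronger call. Each loop has a tag n, always a whole number, and a tag qBL, a small decimal, and the files define neither. As n runs higher on wider bins, it was ranked only among loops of the same width and replicate. The percentile among loops of similar span (within a factor of 2, same width and replicate) is added where it differs widely or falls on the other side of the middle. The lists give no read totals, so the depth is unknown, and a loop missing from a list was not called there, which does not show that the contact was absent.

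A loop was assigned to a gene by the closest of 4 relations: a gene end lay in an anchor, an anchor lay inside the gene away from its ends, an anchor lay within 25 kb of it, or the loop passed over it with both anchors farther out. All 10 genes had such a loop in replicate 2, beside 57.8% of all genes, and 6 had one in replicate 1, beside 19.3%. These were 23 distinct loops in replicate 2, of which 3 were assigned to a pair of the genes, and 5 in replicate 1, of which 1 was. Every one of the 5 replicate 1 loops had a replicate 2 counterpart with both anchor midpoints within 20 kb, against 80.6% of the whole replicate 1 list. In the other direction 5 of 23 had a counterpart, against 18.2% of the whole replicate 2 list. Etv6 and Elk3 had the most loops, with 4 each in replicate 2, a number that 3.76% of all genes reached. Ets1 and Ets2 had 3 each, and the other 6 genes had 2 each, beside a median of 1 over all genes.

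**Figure D1:**
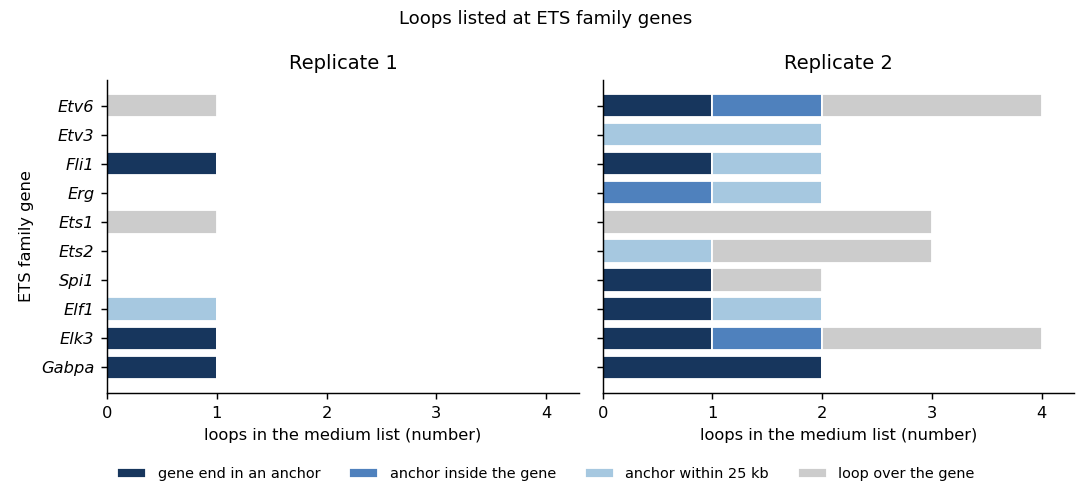
Number of loops (x axis) at each ETS family gene (y axis) in the medium list of replicate 1 (left) and replicate 2 (right), with colours for the relation of the loop to the gene. Replicate 2 gives 2 to 4 loops at every gene, while replicate 1 gives 1 loop at 6 genes and 0 at Etv3, Erg, Ets2 and Spi1.

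With both lists together, 6 of the 10 genes had an end in an anchor (Etv6, Fli1, Spi1, Elf1, Elk3 and Gabpa), where 22.5% of all protein-coding genes did. In replicate 1 alone these were Fli1, Elk3 and Gabpa, 3 of 10 beside 6.67% of all genes, and in replicate 2 alone they were the same 6 as together, beside 19.8%. An anchor lay inside Etv6, Elk3 and Erg, away from their ends, beside 11.4% of all genes. With Spi1, Fli1, Elf1 and Gabpa, this made 7 genes overlapped by an anchor, beside 30.0%. An anchor within 25 kb was found for 5 genes (Etv3, Fli1, Elf1, Erg and Ets2), beside 30.9%. Loops passed over Spi1, Etv6, Ets1, Elk3 and Ets2 with both anchors beyond 25 kb, again 5 genes, beside 18.1%. Any of these relations held for 10 of 10 genes, beside 58.7%. The 10 genes were long, with a median of 82.3 kb against 17.4 kb over all genes, and 9 of them exceeded that overall median. Among the 11062 genes whose length lay between those of the shortest and the longest of them, 28.1% had an end in an anchor, 18.6% an anchor inside, and 66.2% any relation. The part that length plays in the counts was not tested beyond these shares. As the 10 genes were chosen with earlier results of these lists known, their standing above the share of all genes may in part restate that choice.

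**Figure D2:**
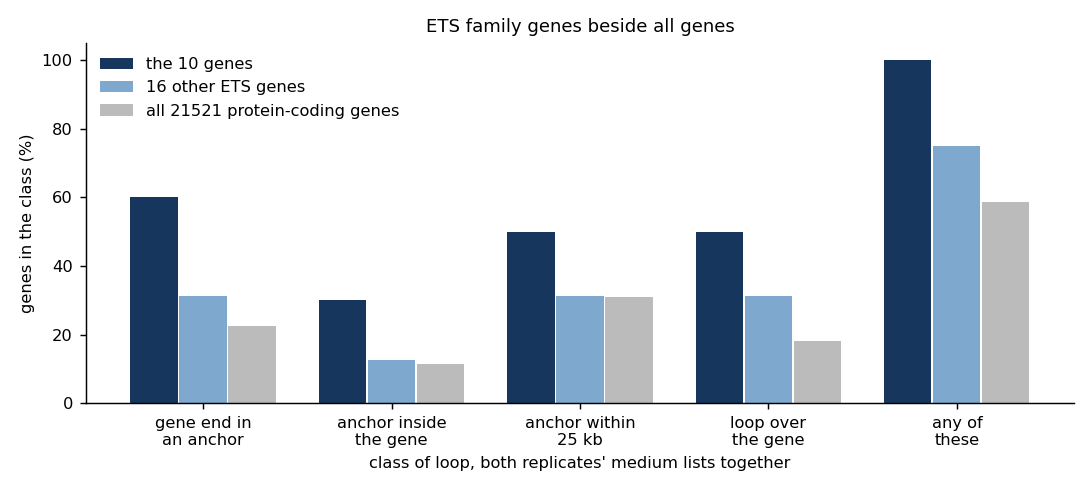
Percentage of genes (y axis) in each relation to a loop (x axis) for the 10 genes described here, 16 other ETS family genes (without Etv3l) and all 21521 protein-coding genes, from both medium lists together. The 10 genes, chosen with earlier results known, stand above the share of all genes in each relation, from 6 of 10 against 22.5% for a gene end in an anchor to 10 of 10 against 58.7% for any of them.

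Etv6 (gene 14011) encodes a transcriptional repressor required for blood stem cells in the bone marrow. It spans 134035700 to 134270158 on chromosome 6, with its start at the left end. The contact found in both replicates framed the whole gene, with its left anchor 60.7 kb before the start in replicate 1 and 70.7 kb before it in replicate 2. On 25 kb bins in replicate 1 it had n of 46, at percentile 91.5 of the 1074 loops of that width, and the 23rd lowest qBL among them (1.04e-12). The right bin of that loop also held the listed start of Bcl2l14, a gene of the Bcl2 family. On 5 kb bins in replicate 2 it had n of 13, at percentile 3.65 of 986 loops (7.55 among loops of similar span), and qBL of 0.00678. The same contact thus ranked high in one list and low in the other, on bins of different width. A second replicate 2 loop, of 480 kb, also passed over the whole gene, from 133900001 to 133909999 to 134380001 to 134389999. It had n of 26, at percentile 35.0 of 2368 loops on 10 kb bins but 70.8 of those of similar span. Both replicate 2 loops over the whole gene, on 5 and 10 kb bins, were in the high list.

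Both anchors that touched Etv6 lay in the last stretch of the gene and came from replicate 2. One, 134225001 to 134249999, was wholly inside the gene, overlapped the long noncoding RNA genes LOC118027456 and Gm17089 and held the listed starts of both. Its loop ran left to 133950001 to 133974999, the same 25 kb bin that carried the framing loop in replicate 1, with n of 71 (percentile 64.6). The next bin, 134250001 to 134274999, held the end of Etv6 opposite its start, 4.84 kb from the edge of the bin, and was joined to 134350001 to 134374999 with n of 77 (percentile 71.7, and 48.9 among loops of similar span). That far bin overlapped the long noncoding RNA gene 4933406J09Rik, as did the right anchors of all 3 of the other loops that ran beyond the gene. The Etv6 start itself lay in no anchor of either replicate.

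Etv6 was also inside a replicate 2 domain, and both ends of that domain had a loop anchor with its midpoint within 25 kb. Of the 339 domains of replicate 2, 156 (46.0%) had such a loop. Only Etv6 and Gabpa of the 10 genes lay whole inside a domain, beside 3.98% of all genes in replicate 2. None did in replicate 1, beside 0.0418%.

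**Figure D3:**
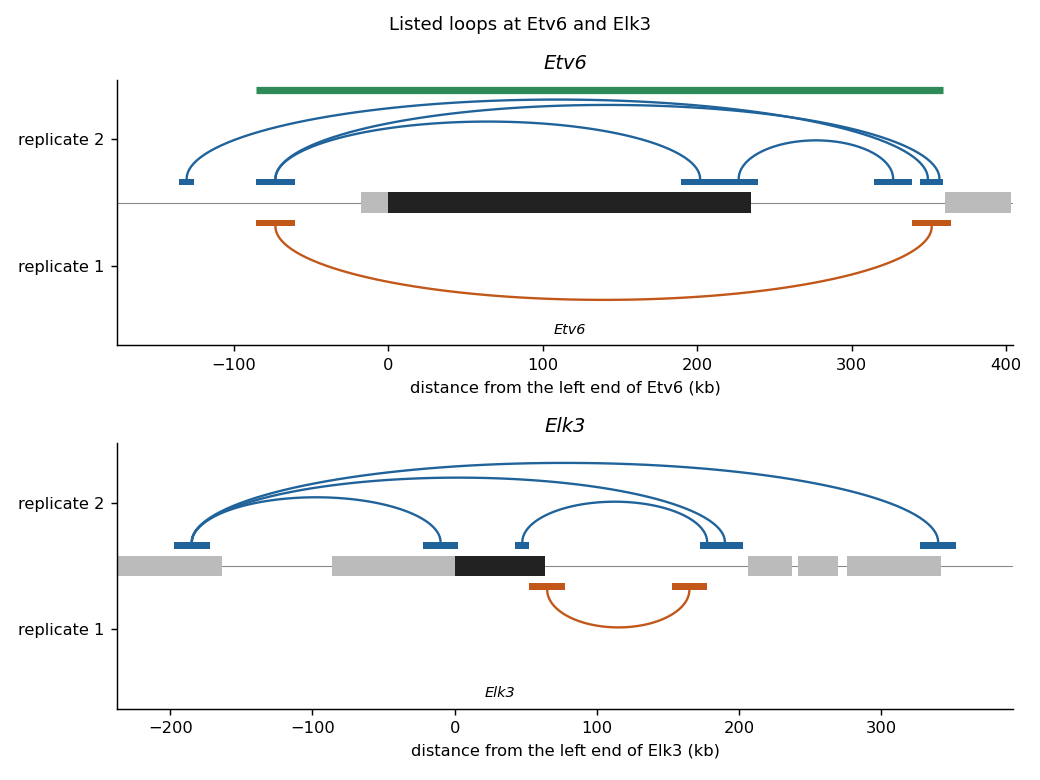
Loops at Etv6 (top) and Elk3 (bottom), drawn as arcs between their anchors (coloured blocks) against distance from the left end of the gene in kb, with replicate 2 above and replicate 1 below the line. Black boxes are the named genes, grey boxes other protein-coding genes and the green bar a replicate 2 domain; the height of an arc increases with its span. Etv6 is framed in both replicates, and 3 replicate 2 loops of Elk3 start from 1 anchor.

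Etv3 (gene 27049), which encodes a repressor, spans 87525577 to 87540158 on chromosome 3. With 14.6 kb it was the shortest of the 10 genes. Its next gene to the right is Etv3l, a relative by its symbol, after a gap of 9.73 kb with no coding gene between. A replicate 2 loop of 60 kb enclosed both genes, from 87500001 to 87509999, which held an end of the Fc receptor-like gene Fcrl5, to 87560001 to 87569999, which held an end of Etv3l. Its n was 34, at percentile 66.1 of the 2368 loops on 10 kb bins and 47.1 of those of similar span. The other loop of Etv3, also in replicate 2, ran 180 kb to the left from 87500001 to 87504999, at the same end of Fcrl5. These anchors lay 15.6, 19.8 and 20.6 kb from Etv3, the farthest ones counted as near for any of the 10 genes. Just outside that limit lay an anchor of each replicate at 25.6 kb, also left of Etv3. Replicate 1 listed no loop of Etv3 by the rule, and its start lay in no anchor.

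Fli1 and Ets1 lie side by side on chromosome 9, 92.8 kb apart with no coding gene between them. Fli1 (gene 14247, 32422204 to 32543432) encodes a regulator of megakaryocytes and stem cells, and Ets1 (gene 23871, 32636241 to 32757820) a regulator of lymphoid cells. Their loops extended over 700 kb, from 32400001 to 33099999, and these were the only protein-coding genes in that stretch. A loop of 525 kb reaching across both genes was called on the same bins in both replicates, 32400001 to 32424999 and 32925001 to 32949999. Its left bin held the left end of Fli1, 2.79 kb from the bin's edge, and also overlapped the long noncoding RNA gene Gm31755. Its right bin lay 167 kb to the right of Ets1 and overlapped the long noncoding RNA gene Gm27162.

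In both replicates this loop ranked low by n, less so among loops of similar span. Its qBL was among the smaller values of its width, and the files do not say whether a small qBL marks a strong or a weak loop. In replicate 2 its n was 37, at percentile 15.7 of 2375 loops on 25 kb bins and 31.3 of those of similar span, while its qBL of 2.4e-15 was the 130th lowest. In replicate 1 its n was 19, at percentile 5.03 of 1074 and 14.1 of those of similar span, while its qBL of 1.98e-09 was the 82nd lowest. Among the 163 loops on 25 kb bins called at identical anchors in both replicates, n in replicate 2 was a median of 2.87 times that in replicate 1, with quartiles of 2.53 and 3.16. For the Fli1 loop the ratio was 1.95, and 2.45% of those 163 loops had a smaller one. With 1 value a replicate, this ratio has no error.

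Replicate 2 had 2 further loops in this neighbourhood. One of 690 kb ran from 32400001 to 32409999, 12.2 kb left of Fli1, to 33090001 to 33099999 beyond the far bin, with n of 18 (percentile 6.95 of 2368, and 25.4 among loops of similar span). It was the only loop of this neighbourhood in a high list, and the only one not on 25 kb bins. The other, of 350 kb, started in the gap between the genes at 32575001 to 32599999, 31.6 kb right of Fli1 and 36.2 kb left of Ets1, and shared the bin 32925001 to 32949999. It enclosed Ets1 alone, with n of 44 (percentile 26.3 of 2375), and its left bin held the listed start of the long noncoding RNA gene Gm31871. No anchor in either replicate overlapped Ets1 or came within 25 kb of it.

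Erg and Ets2 form a second pair of neighbours, on chromosome 16, with 116 kb and no coding gene between them. Erg (gene 13876, 95359169 to 95586600) encodes a factor required for stem cell maintenance, and Ets2 (gene 23872, 95702407 to 95721049) a factor activated by MAP kinase signalling. All loops of this pair came from replicate 2, and replicate 1 had none within 25 kb of either gene or over it. A loop of 500 kb ran from inside Erg, at 95450001 to 95474999, over Ets2 to 95950001 to 95974999, with n of 37 (percentile 15.7 of 2375, and 28.2 among loops of similar span). RefSeq lists 3 starts for Erg, read on the minus strand, and the one that lies farthest into the gene, at 95459348, was inside that anchor. The other Erg starts lay 55.4 and 38.4 kb from the nearest replicate 2 anchor. The window around the start in the anchor is printed here, from 250 bases before to 50 bases after it, on the minus strand of chr16:95459299-95459598 in GRCm38.p6. It is 46.0% G and C and holds no match to either of the motifs described further on.
Erg: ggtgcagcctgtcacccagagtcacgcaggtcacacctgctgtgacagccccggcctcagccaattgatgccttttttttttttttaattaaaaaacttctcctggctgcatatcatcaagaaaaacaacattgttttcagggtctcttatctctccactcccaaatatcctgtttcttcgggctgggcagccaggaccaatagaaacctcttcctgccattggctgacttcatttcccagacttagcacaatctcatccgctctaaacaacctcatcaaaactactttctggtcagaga

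A loop of 325 kb shared the right bin of the Erg loop and enclosed Ets2 alone, from 95625001 to 95649999 in the gap between the genes, with n of 68 (percentile 61.1, and 74.0 among loops of similar span). The arrangement on chromosome 16 shared some parts with that on chromosome 9. In replicate 2 each pair had a loop from the left gene over the right one and a shorter loop from the gap over the right gene. In each pair these loops met at 1 far bin. The longer of them started at the left end of Fli1 and spanned both genes on chromosome 9, but started inside Erg on chromosome 16. The far bin on chromosome 16 overlapped no annotated gene. Ets2 further had a loop of 100 kb whose left anchor, on a 5 kb bin, began 3.95 kb right of the gene, with n of 13 (percentile 3.65) and qBL of 0.0245. To the left, Erg had a loop of 525 kb from 95325001 to 95349999, 9.17 kb from the gene, to a bin inside the potassium channel gene Kcnj6, with n of 29 (percentile 6.32 of 2375, and 11.8 among loops of similar span) and qBL of 0.011. Of the 4 loops of this pair, only the 100 kb loop was in the high list, and it was the only one not on 25 kb bins.

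**Figure D4:**
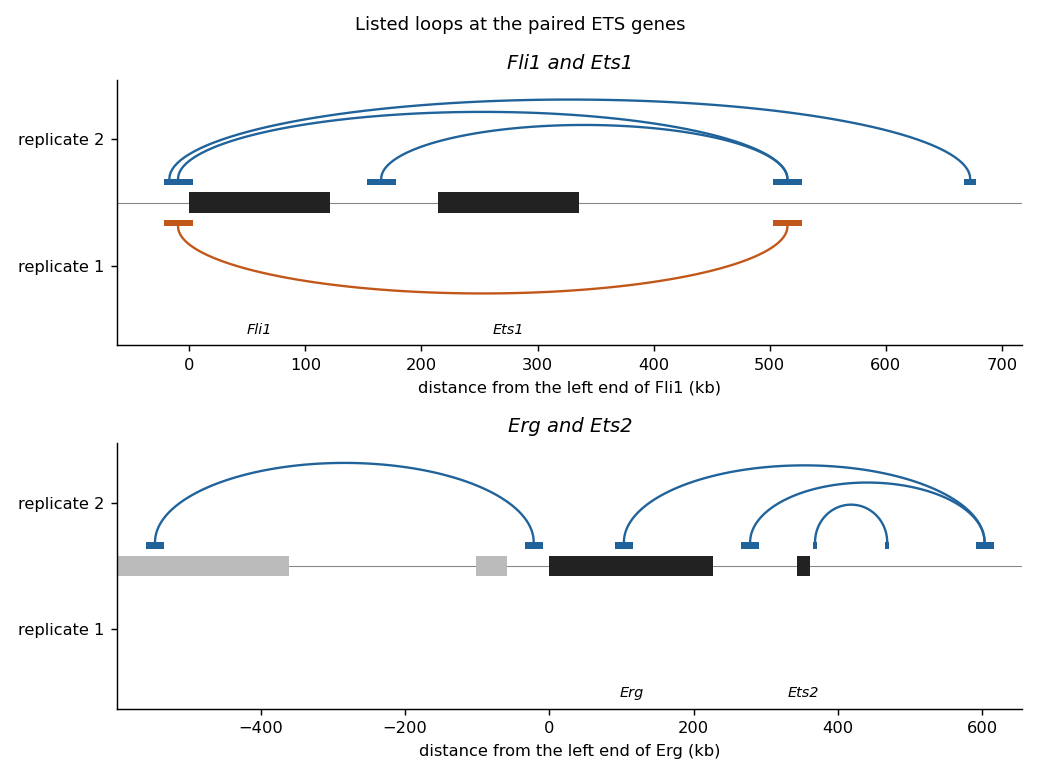
Loops at Fli1 and Ets1 on chromosome 9 (top) and at Erg and Ets2 on chromosome 16 (bottom), against distance from the left end of Fli1 or of Erg in kb, with replicate 2 above and replicate 1 below the line. Black boxes are the named genes, grey boxes other protein-coding genes and coloured blocks the anchors. In each pair 2 replicate 2 loops meet at 1 far bin, and only the 525 kb loop at Fli1 and Ets1 appears in replicate 1.

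Spi1 (gene 20375) encodes PU.1, the master regulator of myeloid and B-lymphoid development, and spans 91082374 to 91115759 on chromosome 2. It lay in the most gene-dense surroundings of the 10, with 25 other protein-coding genes within 500 kb, against 4 for Fli1, Ets1 and Gabpa. Its right end lay in a replicate 2 anchor, 9.24 kb from the edge, with an end and the listed start of Mybpc3, a gene of heart muscle. The bin opposite held ends of Ddb2, of Acp2, whose listed start was in it, and of Nr1h3, which encodes a sterol-sensing nuclear receptor. This loop had n of 88, at percentile 81.7 of 2375 and 64.4 of those of similar span. A second replicate 2 loop of 825 kb, the longest of any of the 10 genes, passed over Spi1 from inside Fnbp4 to inside Ckap5, with n of 41. This was at percentile 21.6 of loops on 25 kb bins and at 57.8 of those of similar span. Neither loop was in the high list, both being on 25 kb bins, and neither had a counterpart in replicate 1.

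Elf1 (gene 13709), which encodes an activator in blood cells, spans 79481174 to 79582491 on chromosome 14, with its start at the left end. A short loop beside it was called in both replicates, from 79390001 to 79399999 to 79460001 to 79469999 in replicate 1 (70 kb) and on 5 kb bins within these in replicate 2 (75 kb). By n it ranked near the top of the loops of its bin width in both replicates. Its n was 27 in replicate 1 (percentile 98.5 of 202 loops on 10 kb bins) and 34 in replicate 2 (percentile 98.2 of 986 on 5 kb bins). Its right anchor ended 11.2 kb left of Elf1, inside Wbp4, a splicing factor gene that reaches over the Elf1 start. Its left anchor held the listed start of Naa16 in both replicates and, on the wider replicate 1 bin, that of Mtrf1 as well. A replicate 2 domain of 65 kb, 79395001 to 79460000, lay between these anchors and held Mtrf1, Kbtbd7 and Kbtbd6, so that Elf1 lay 21.2 kb outside it. A longer replicate 2 loop of 190 kb ran from the same left bin over Elf1 to 79580001 to 79589999, which held the far end of Elf1 and the listed start of Sugt1. Its n was 23 (percentile 23.7 of 2368). All of these Elf1 loops, on 5 or 10 kb bins, were in the high lists, the 1 of replicate 1 included. Neither listed start of Elf1 lay in an anchor.

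Elk3 (gene 13713) encodes a ternary complex factor, which binds DNA together with serum response factor. It spans 93247415 to 93311159 on chromosome 10 and is read on the minus strand, with its start at the right end. Its replicate 1 loop spanned 100 kb from 93300001 to 93324999, which held that start 11.2 kb from its edge, to 93400001 to 93424999, which overlapped no gene, with n of 26 (percentile 28.8 of 1074, and 14.7 among loops of similar span). The replicate 2 counterpart joined narrower bins, 93290001 to 93299999 inside the gene and 93420001 to 93429999, with n of 31 (percentile 56.1 of 2368). Its left bin ended 11.2 kb short of the start, so the replicates differed in whether the start itself was in the anchor. They matched within 20 kb but not within 10 kb.

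The other 3 loops of Elk3 were in replicate 2 and all started from 93050001 to 93074999, a bin inside the cilium gene Cfap54. Their right anchors lay at the far end of Elk3 (93225001 to 93249999, 175 kb), beyond its start (93425001 to 93449999, 375 kb) and at Ccdc38 and Snrpf (93575001 to 93599999, 525 kb). The values of n were 96, 59 and 34 in that order, at percentiles 87.6, 48.9 and 11.5 of 2375. Among loops of similar span the percentiles were 82.5, 65.7 and 22.6, so the middle loop then lay above the middle. The end of Elk3 lay 2.58 kb from the edge of its bin, which also overlapped Cdk17, a kinase gene. Of the 10590 anchors of replicate 2, 64 (0.604%) took part in 3 loops or more, and this was the only one among the anchors of the 10 genes. The window around the Elk3 start, which lay in the replicate 1 anchor, is shown because it is the only listed start among these genes that was in an anchor of that replicate and of no other. It lies on the minus strand at chr10:93311110-93311409 in GRCm38.p6, is 71.3% G and C and holds no match to either motif.
Elk3: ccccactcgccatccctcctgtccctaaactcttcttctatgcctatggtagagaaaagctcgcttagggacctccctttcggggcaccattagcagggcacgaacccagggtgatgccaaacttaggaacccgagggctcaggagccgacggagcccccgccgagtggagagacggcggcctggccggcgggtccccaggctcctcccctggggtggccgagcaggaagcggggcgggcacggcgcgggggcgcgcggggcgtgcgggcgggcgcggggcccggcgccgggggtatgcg

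Gabpa (gene 14390) encodes the DNA-binding subunit of GABP, known as an activator of nuclear genes for mitochondrial proteins. It spans 84834891 to 84863783 on chromosome 16, and its listed start at 84835124 lay in an anchor in both replicates, which was true of no other of the 7 genes with a listed start. Both listed starts of Atp5j, an ATP synthase subunit gene read in the opposite direction, shared the anchor, at 84834976 and 84835625. In replicate 1 the bin 84825001 to 84849999 was joined over 100 kb to 84725001 to 84749999, with n of 41 (percentile 82.5 of 1074). In replicate 2 the bin 84830001 to 84839999 was joined over the same distance to 84730001 to 84739999, with n of 46 (percentile 93.3 of 2368). The far anchor held the listed start of Mrpl39, a mitochondrial ribosomal protein gene, in both replicates. The replicate 2 bin at Gabpa had a second loop, of 210 kb, to 84620001 to 84629999, where no gene is annotated, with n of 22 (percentile 19.8). A replicate 2 domain of 365 kb, 84515001 to 84880000, held Mrpl39, Jam2, Atp5j and Gabpa, and no loop joined its ends within 25 kb.

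The windows at both ends of the 100 kb Gabpa loop are printed because this was the only loop that joined a listed start of one of these genes to a listed start of another gene in both replicates. That of Gabpa is the plus strand of chr16:84834874-84835173 and that of Mrpl39 the minus strand of chr16:84735195-84735494, both in GRCm38.p6. Capitals mark a match to CGGAAG or its reverse complement, the letters preferred by many ETS factors.
Gabpa: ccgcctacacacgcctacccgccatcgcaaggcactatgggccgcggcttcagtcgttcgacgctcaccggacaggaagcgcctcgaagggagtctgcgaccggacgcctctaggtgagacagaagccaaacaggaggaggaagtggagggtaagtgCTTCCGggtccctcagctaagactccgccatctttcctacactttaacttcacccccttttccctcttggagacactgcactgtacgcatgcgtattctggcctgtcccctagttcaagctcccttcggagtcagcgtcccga
Mrpl39: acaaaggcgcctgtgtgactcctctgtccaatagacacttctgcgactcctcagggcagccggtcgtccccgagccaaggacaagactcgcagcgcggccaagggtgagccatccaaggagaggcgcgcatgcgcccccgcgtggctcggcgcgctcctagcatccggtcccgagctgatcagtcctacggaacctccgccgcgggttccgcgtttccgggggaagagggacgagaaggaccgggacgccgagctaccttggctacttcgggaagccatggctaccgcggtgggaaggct
The match in the Gabpa window is on the minus strand, at 84835031 to 84835036, and the same bases lie in the window of the first Atp5j start. The Mrpl39 window has none.

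**Figure D5:**
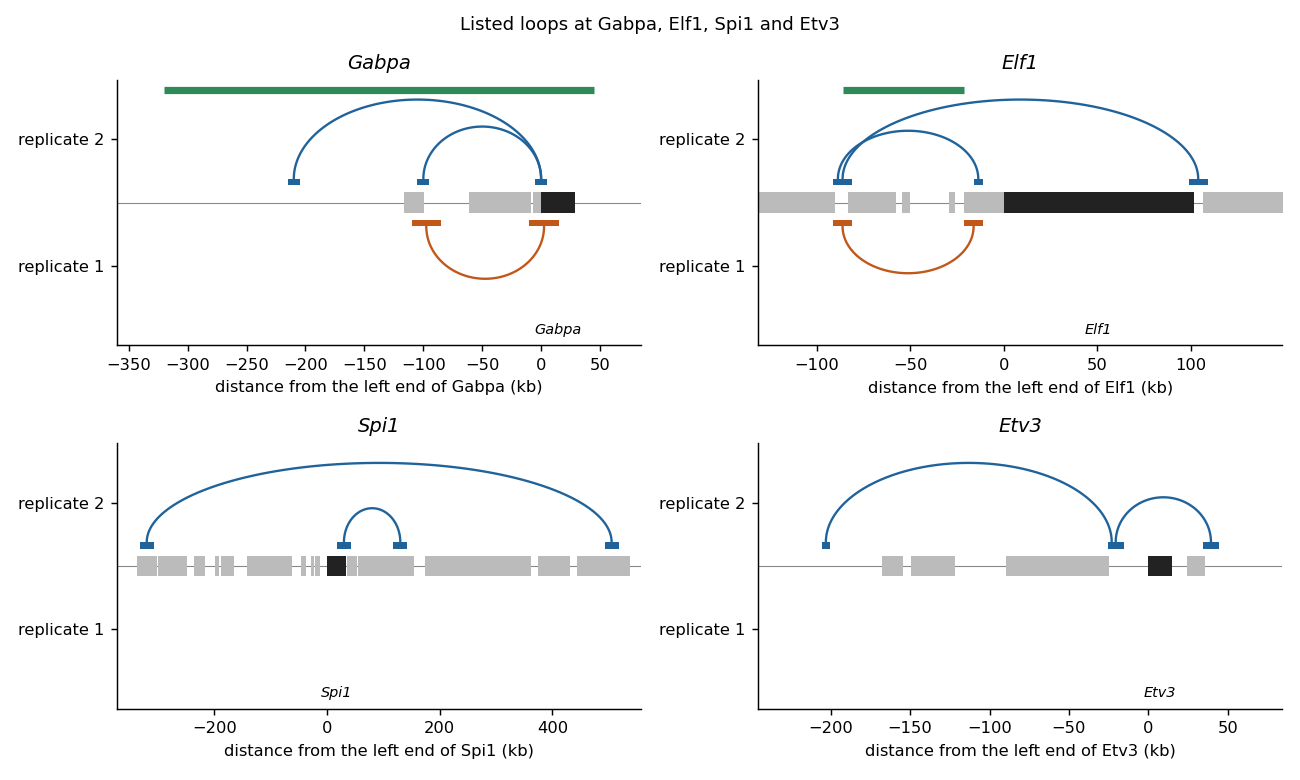
Loops at Gabpa, Elf1, Spi1 and Etv3, drawn as arcs against distance from the left end of each gene in kb, with replicate 2 above and replicate 1 below the line. Black boxes are the named genes, grey boxes other protein-coding genes and green bars replicate 2 domains. The 100 kb loop at Gabpa and the 70 to 75 kb loop beside Elf1 appear in both replicates, and the loops of Spi1 and Etv3 in replicate 2 alone.

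Starts were compared with anchors for the 7 genes that RefSeq windows matched (all but Fli1, Ets1 and Spi1). Of these, Elk3, Erg and Gabpa, 3 of 7, had a listed start in an anchor of either replicate, beside 14.9% of the 17274 protein-coding genes with a listed start. In replicate 1 they were Elk3 and Gabpa, 2 of 7 beside 4.15%, and in replicate 2 Erg and Gabpa, 2 of 7 beside 12.9%. Among genes with an end in an anchor, 54.7% were joined to an anchor with an end of another coding gene. Of the 6 here these were Elf1, Gabpa and Spi1, 3 of 6, which is near that share. The reference windows were searched on both strands for CGGAAG and for AGGNGGC, letters from the core of the CTCF motif. Of 10 windows of these genes, 2 held CGGAAG (Etv3 and Gabpa) beside 16.9% of all 32851 windows, and 2 held AGGNGGC (Etv3 and Erg) beside 29.4%. The 32851 windows include those of noncoding genes. None of the Etv3 and Erg matches lay at a start found in an anchor. Windows of all coding genes with the start in an anchor held CGGAAG in 28.9% of cases, against 20.1% with the start in none. For AGGNGGC these shares of coding genes were 38.5% and 33.0%. Such matches are letters in a reference window and not measured binding.

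The 16 other genes of the family counted here are those left after the 10 were taken, so they too were set with earlier results known. Etv3l, described beside Etv3, was not on that list and is not in these counts, although an end of it lay in a replicate 2 anchor. Among these 16 genes, an anchor held an end of 5 (Erf, Spic, Etv1, Elk1 and Elf4), or 31.2% beside 22.5% of all genes, and 12 of 16 had a loop by the rule, beside 58.7%. None lay in a domain of either replicate. In replicate 1 the genes with a loop were Elf2, Etv1 and Elk1, or 18.8%, near the share of all genes given above. Elk1, a ternary complex factor gene like Elk3, had a 100 kb loop on the same bins in both replicates, with n of 87 in replicate 2 (percentile 80.8 of 2375) and 29 in replicate 1 (percentile 40.5 of 1074). Among loops of similar span the percentiles were 62.9 in replicate 2 and 25.9 in replicate 1. The anchors of this loop held the far end of Elk1 and the listed start of Araf, a kinase gene. Erf, a repressor gene, had the shortest loop of the family, of 35 kb, from its far end into Cic, another repressor gene. Spic, a relative of Spi1, had a 50 kb loop from its far end, and Elf4 one of 125 kb from its far end. Etv1 was the only one of these 5 whose end in an anchor was the one with its start, and it was so in both replicates.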

How the data were processed

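Loops and contact domains of 2 Hi-C samples of HPC5 cells were read as deposited. HiC-Pro 2.11.1 and mm10 are named in the submitters' processing notes, while the sources used here name no loop or domain caller. The deposited loop entries give anchors, n and qBL, and those of the medium lists were the main ones, with n and qBL taken from them. Anchors were compared with RefSeq gene positions of GRCm38.p6 after leaving out 345 scaffold genes, of which 110 are protein-coding, and loops were matched between replicates where both anchor midpoints lay within 20 kb. Starts, strands and promoter sequences came from RefSeq's windows of 250 bases before to 50 after a start, which matched 7 of the 10 genes.

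Named are the 10 genes, other ETS genes with an end in an anchor, and protein-coding genes with an end in the anchor opposite; genes that only overlap an anchor or lie nearby were named after their values were seen. The 10 genes and all lists were chosen with earlier results of these data known, so counts stand beside the share of all genes and no test was made. The alternatives were the high lists, near limits of 10 and 50 kb, other matching rules, a single replicate, shared loops, fewer genes, other gene backgrounds, any overlap with a domain, and ranking among loops of similar span. Scripts (Python 3.11.15, pandas 2.3.3, numpy 2.4.6, scipy 1.17.1, matplotlib 3.10.9) were tested on simulated data.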

Additional observations from a re-analysis of the deposited data

How the results depend on the processing

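The lists differ 4.49-fold in length between the replicates and give no read totals, so absence of a loop from replicate 1 was not read as a difference. With the high lists the distinct loops of the 10 genes numbered 1 in replicate 1 and 11 in replicate 2, in place of 5 and 23, near the 15.8% and 58.5% of all loops that were in those lists. The genes with an end in an anchor then numbered 2, those with an anchor inside 1, and those with a loop over them 2, in place of 6, 3 and 5. The loops lost, 4 in replicate 1 and 12 in replicate 2, were those on 25 kb bins, none of which were in the high lists. These counts therefore show what leaving out 25 kb bins does, and the effect of a stricter call was not tested. A near limit of 10 kb left 2 genes with a near anchor, in place of 5, and put 7 under a loop, in place of 5. Leaving out either replicate gave 3 to 6 genes with an end in an anchor, 0 to 3 with an anchor inside, 1 to 5 with one near and 2 to 5 with a loop over them, the lower number each time without replicate 2. Loops found in both replicates alone gave 3 genes with an end in an anchor, 1 with an anchor inside, 1 with one near and 2 with a loop over them.

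The share of all genes moved with the genes counted. On autosomes alone 31.7% had a near anchor. Among the 11062 genes between the shortest and the longest of the 10 in length, 28.1% had an end in an anchor, 18.6% an anchor inside and 33.5% one near. That set was bounded by the lengths of the 10 but not matched to them gene by gene. Over all 49209 annotated genes the shares were 16.7% with an end in an anchor, 5.71% with an anchor inside, 26.5% with one near and 23.3% with a loop over them. The cause of these shifts was not tested. Matching within 10 kb, or by overlap of both anchors, found 4 of the 5 replicate 1 loops in replicate 2, and matching within 50 kb found 5. No paired analysis was possible because both samples belong to 1 group.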

Other observations

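Outside the 10 genes, Etv1 and Elf2 were the ETS family genes with loops into their own body, in replicate 2. Elf2, which encodes a relative of Elf1 and was named after its values were seen, spans 51252720 to 51340683 on chromosome 3 and had a loop of 60 kb with both anchors inside it. The left of these anchors, 51270001 to 51279999, held the listed start at 51277514. The loop had n of 38 (percentile 78.4 of 2368 loops on 10 kb bins, and 64.4 among those of similar span). A second loop of 70 kb joined the adjoining bin inside Elf2 to a bin 9.32 kb beyond the right end of the gene, with n of 48 (percentile 95.4). Elf2 is read on the minus strand, so that is its start side, where its other listed start lies at 51340644. The whole of Elf2 was enclosed in both replicates by a further loop, of 120 kb in replicate 2 and 125 kb in replicate 1, whose right anchors both held a pair of proline tRNA genes.

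Etv1, which encodes a transcriptional activator, spans 38780082 to 38870483 on chromosome 12. In replicate 2 its start end was joined over 80 kb to 38860001 to 38869999 inside its far part, and that bin was joined over 60 kb to 38920001 to 38929999 beyond the gene. Both loops had n of 41 (percentile 85.6 of 2368). Among loops of similar span the 80 kb loop was at percentile 78.5 and the 60 kb loop at 75.5. In replicate 1 the start end was joined over 125 kb to 38900001 to 38924999, which overlaps the far bin of that second loop. A loop over the whole gene was called in both replicates, of 1370 kb in replicate 2 and 1350 kb in replicate 1, longer than any loop of the 10 genes.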
